A study of Mus musculus with 8 samples.

Results

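This account follows 10 genes of the hepatic lipid droplet in livers with and without the RNA-binding protein ZFP36L1: the CIDE family genes Cidea, Cideb and Cidec, the perilipin genes Plin2, Plin3, Plin4 and Plin5, the triglyceride lipase gene Pnpla2, its inhibitor G0s2, and the droplet dehydrogenase gene Hsd17b13. The genes were taken by symbol from a table of raw RNA-seq counts with 25239 genes, and all 10 were found. Whole livers of adult male mice gave 4 control and 4 knockout libraries. The controls had loxP-flanked alleles of the target gene (labelled Zf36l1 fl/fl, genotype WT) and no Cre transgene is named for them. Knockout mice carried the same alleles with Cre under the albumin promoter (Zfp36l1 fl/fl Alb-Cre+), which is active in hepatocytes. Which other liver cells kept an intact gene was not measured here. Cre and the deletion therefore differ together between the groups. The labels name no alcohol treatment for these libraries, and a library number is not said to stand for 1 animal. The p-values then measure only how far these libraries spread, which may be technical.

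Lipid droplets store triglyceride and cholesteryl ester under a phospholipid monolayer whose proteins decide how large the droplet grows and how fast its lipid is released. CIDE proteins sit where droplets touch and pass lipid from the smaller to the larger one. CIDEB is the family member of normal hepatocytes, where it also takes part in loading lipid onto very low density lipoprotein, while CIDEA and CIDEC are best known from brown and white fat and appear in fatty liver. Perilipins coat the droplet and limit access of lipases, and PNPLA2 (adipose triglyceride lipase) takes the first fatty acid off a triglyceride. ZFP36L1 recognises AU-rich stretches, with UAUUUAU as the core motif, in the untranslated region that follows the coding sequence (3′ UTR), and recruits enzymes that shorten and degrade the mRNA.

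Total counts were 104842873 to 132017092 in the control and 120200618 to 140582588 in the knockout libraries. Levels are library-scaled counts (CPM) after TMM normalisation, as mean ± SD over n = 4 libraries. Differences are log2 fold changes (knockout over control, with standard errors, SE) tested by the quasi-likelihood method of edgeR and adjusted over 14861 genes by Benjamini and Hochberg. The targeted gene Zfp36l1 had 212 to 324 CPM in the control and 57.9 to 76.9 CPM in the knockout libraries. Because liver RNA was sequenced in bulk, fewer cells of a type and less RNA per cell cannot be told apart.

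The core motif was looked for in the members' longest annotated 3′ UTRs (GENCODE M21 on GRCm38, the assembly of mm10), because it is the sequence the deleted protein binds. UAUUUAU, on the transcribed strand, was found once each in Cidec and Pnpla2 and in none of the other 8 members. Of 13707 tested genes with an annotated 3′ UTR, 29.8% hold it. The sites are shown 5′ to 3′ with the motif in capitals and T for U.
Cidec: ctgcagtaaacTATTTATgctgatacctc
Pnpla2: gtgtgaagaatTATTTATttttgccaaag
The Cidec stretch lies at chr6:113424635-113424663 on the minus strand, with the motif at base 910 of a 3′ UTR of 928 bases. The Pnpla2 stretch lies at chr7:141460034-141460062 on the plus strand, with the motif at base 377 of 1075, and it also holds the longer UUAUUUAUU, which contains the core motif and is found in 8.01% of those genes. The shorter AUUUA, which is part of both, occurs once each in the 3′ UTRs of Cidec, Pnpla2, Plin3 and Hsd17b13 and in 69.3% of those genes. Most members' 3′ UTRs are short: those of Cidea and G0s2 have 262 and 302 bases, and the median of the tested genes was 1155. A match describes the letters and was not tested as a binding site.

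Of the 10 members, 4 rose in the knockout livers, namely Cidea, Cidec, Pnpla2 and Hsd17b13, and 0 fell. Over all tested genes 3.51% rose and 1.88% fell. No member had a lower level at an unadjusted p under 0.05 either, and DESeq2 and limma also called 0 members lower. Over all genes DESeq2 called 1014 higher and 724 lower, and limma 830 and 604. The share of all genes at an unadjusted p under 0.05 is not given. Counts at that level, here and in the lists below, therefore have no background. The log2 fold change was above 0 for 8 of the 10 members, with a median of 0.48. Over all tested genes 48.4% were above 0, with a median of −0.01. Because the members were chosen with earlier results of these data known, this contrast is a description only. The control and knockout libraries did not overlap for the same 4 members, and for 15.1% of all tested genes. Cidea reached the test only through its level in the knockout group, and leaving it aside 3 of 9 members rose and 3 did not overlap. With the replicate number as a block, 3 members rose, Plin2, Pnpla2 and Hsd17b13, and 0 fell, where 4.39% of all genes rose and 2.52% fell. Leaving out 1 library at a time gave 0 to 5 higher members: 0 without knockout replicate 3, 1 without control replicate 2, knockout replicate 1 or knockout replicate 2, 2 without control replicate 1 or 4, 3 without control replicate 3 and 5 without knockout replicate 4. Calls over all genes moved too, from 521 higher and 280 lower in the full fit to 169 and 42 without knockout replicate 3. They were 202 and 54 without knockout replicate 1, and 583 and 384 without control replicate 3.

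**Figure D1:**
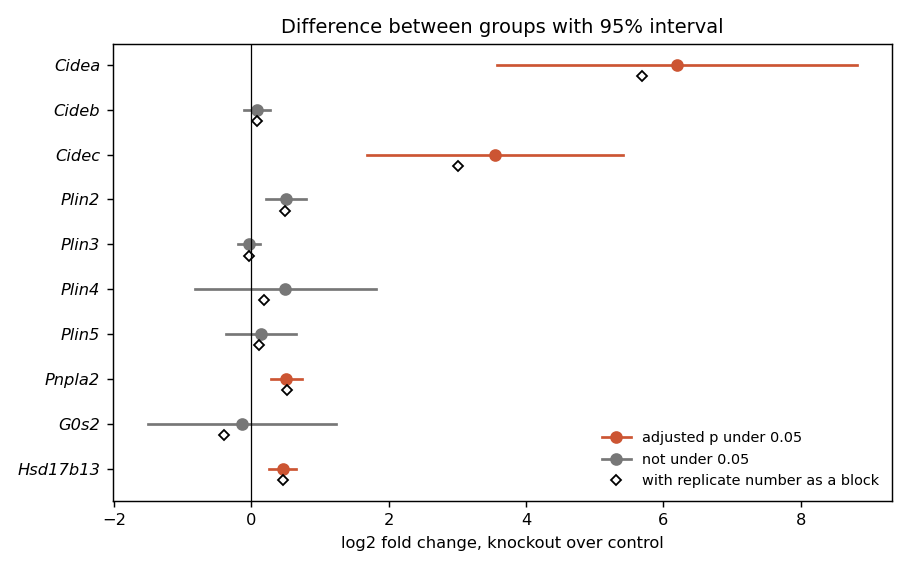
Log2 fold change of each member, knockout over control (x axis), with 95% intervals from the quasi-likelihood fit as bars and the value with the replicate number as a block as open diamonds. Cidea and Cidec lie furthest from 0 and have wide intervals, while Pnpla2, Hsd17b13 and Plin2 sit close to 0.5 with narrow ones.

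Cidea (ENSMUSG00000024526.9, chromosome 18, 67343604 to 67367785, plus strand, mm10) was close to silent in the control livers. It had 0.222, 0.0316, 0.0143 and 0.131 CPM in control libraries 1 to 4, which rest on 24, 4, 2 and 16 counts. Knockout libraries 1 to 4 had 1.34, 17.9, 6.41 and 2.76 CPM. Every knockout library lay above every control library, and the highest knockout value, in library 2, was far above the lowest, in library 1. The means were 0.0997 ± 0.0962 and 7.09 ± 7.49 CPM, which differ by 6.20 on the log2 scale (SE 1.12, adjusted p = 0.0255). Leaving out 1 library gave values from 5.18 without knockout replicate 2 to 6.92 without control replicate 1. With the replicate block the adjusted p was 0.0877 and with limma and quality weights it was 0.136, and the call was also lost without control replicate 2 (0.0653), control replicate 4 (0.0571) and knockout replicate 3 (0.0694).

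The transcript B430212C06Rik, annotated on the opposite strand and overlapping the span of Cidea without sharing exon bases, was examined after its values were seen. It had 0.102, 0.103, 0.150 and 0.164 CPM in the control and 0.306, 1.36, 0.579 and 0.510 CPM in the knockout libraries, and rose by 2.39 (SE 0.467, adjusted p = 0.0223). Library 2 was the highest and library 1 the lowest of the knockout libraries for both genes. The strand setting of the counting is not given in the sources used here, so reads of the pair may not be separable.

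Cidec (ENSMUSG00000030278.11, chromosome 6, 113424634 to 113435760, minus strand), whose protein drives growth of large droplets, followed the same order of groups from a higher base. The control libraries held 4.05, 2.85, 2.24 and 4.55 CPM. The knockout libraries held 15.5, 99.6, 36.5 and 8.87 CPM. Even the lowest knockout library, number 4, exceeded the highest control library, and library 2 alone stood at 99.6. The mean went from 3.42 ± 1.07 to 40.1 ± 41.4 CPM, a log2 fold change of 3.55 (SE 0.80, adjusted p = 0.049). That call was lost with the replicate block (adjusted p = 0.178), with limma and quality weights (0.12) and without the count filter (0.0878), and it held in 1 of the 8 fits that left out a library, the one without knockout replicate 4 (0.0324). The other 7 gave 0.0934, 0.112, 0.0816 and 0.0965 without control replicates 1 to 4, and 0.0679, 0.0584 and 0.103 without knockout replicates 1 to 3. The log2 fold change stayed between 2.57 (without knockout replicate 2) and 3.89 in those 8 fits.

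Cideb (ENSMUSG00000022219.10, chromosome 14, 55754050 to 55758458, minus strand), the constitutive hepatocyte member, gave no such difference. It had 52.4, 50.1, 41.6 and 51.0 CPM in the control and 50.1, 55.4, 52.3 and 49.3 CPM in the knockout libraries, and the groups overlapped. The log2 fold change was 0.09 (95% interval −0.10 to 0.27, adjusted p = 0.592) and was −0.03 when libraries were scaled by total counts alone. Exons of Cideb overlap those of Nop9 on the opposite strand, which had 18.1 ± 1.18 and 16.6 ± 0.662 CPM.

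Set against each other per kilobase of gene length, the 3 CIDE transcripts held different shares of the family in the 2 groups. Cideb made up 94.7%, 96.3%, 96.5% and 94.1% of the family's CPM per kilobase in control libraries 1 to 4. Its share was 81.1%, 39.6%, 62.9% and 85% in knockout libraries 1 to 4. Cidec took 3.46% to 5.62% of the family in the control livers and 16.7%, 47.6%, 29.4% and 10.2% in the knockout livers, so in knockout library 2 Cidec was more abundant than Cideb on this scale. Cidea stayed under Cidec in every library, with 0.0335% to 0.404% of the family in the control and 2.18% to 12.9% in the knockout livers.

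**Figure D2:**
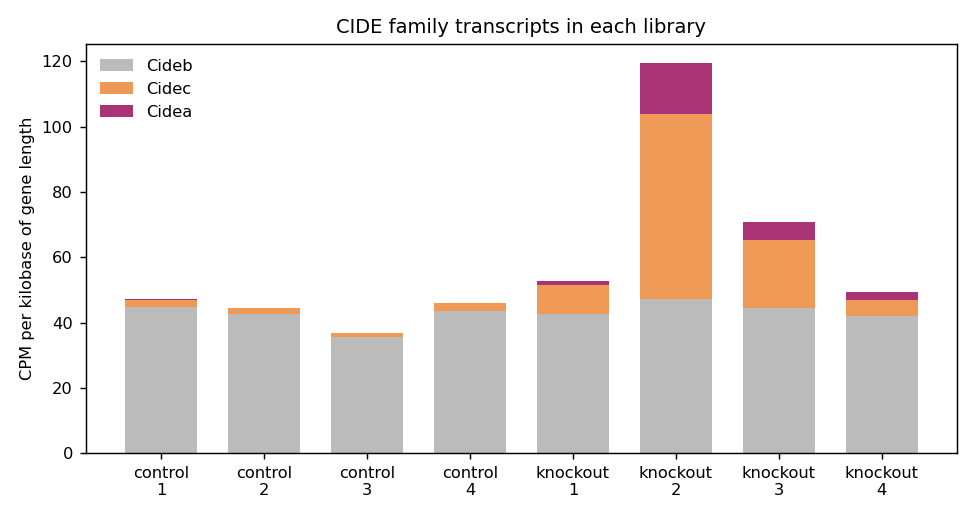
CPM per kilobase of gene length (y axis) of the 3 CIDE transcripts stacked for each of the 8 libraries. The grey Cideb part runs from 35.5 to 47.2 across all libraries, and the Cidec and Cidea parts add most in knockout library 2.

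Plin2 (ENSMUSG00000028494.12, chromosome 4, 86648386 to 86670060, minus strand), which encodes the main perilipin of the liver and tracks its lipid content, was the most abundant member. The control libraries had 641, 581, 476 and 568 CPM. Knockout libraries 1 to 3 had 874, 872 and 857 CPM, and library 4 had 613 CPM. Library 4 lay below the highest control library, so the groups overlapped by this 1 library. Means were 567 ± 68.2 and 804 ± 128 CPM (log2 fold change 0.50, SE 0.133, adjusted p = 0.0581), which missed the threshold. The adjusted p was 0.0443 with the replicate block, 0.00466 with DESeq2, 0.0294 with limma and quality weights, and 0.0149 without knockout replicate 4. Plin2 passed in only these 4 of the 17 alternatives. It was not called in 7 of the 8 fits that left out a library (adjusted p up to 0.149), nor under total counts alone (0.0758). The exact two-sided permutation test gave p = 0.0571 (n = 4 per group).

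Plin3 (ENSMUSG00000024197.10), a broadly expressed perilipin that moves between cytosol and droplet, was the steadiest of the 10. It had 53.3, 49.2, 51.3 and 57.1 CPM in the control and 55.5, 48.1, 52.6 and 50.7 CPM in the knockout libraries. The log2 fold change was −0.03 (95% interval −0.19 to 0.13, adjusted p = 0.854).

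Plin5 (ENSMUSG00000011305.11), a perilipin of oxidative tissues that ties droplets to mitochondria, had 50.0, 57.0, 35.0 and 45.5 CPM in the control libraries. Its knockout values were 56.0, 61.0, 59.0 and 31.0 CPM. As for Plin2, knockout library 4 stood below the other 3, and here it was the lowest of all 8 libraries. The group difference was 0.14 (SE 0.223, adjusted p = 0.755).

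Plin4 (ENSMUSG00000002831.13), a perilipin of adipocytes and muscle, had 9.47, 14.6, 8.47 and 8.40 CPM in the control and 7.37, 32.9, 12.3 and 5.30 CPM in the knockout libraries. Knockout library 2 was the highest of all 8, and libraries 1 and 4 were the lowest. The log2 fold change of 0.50 (SE 0.564, adjusted p = 0.655) rested on that library, since it was −0.30 without it. Plin4 and Plin5 lie side by side on chromosome 17 on the same strand, 1797 bases apart (56100591 to 56109803 and 56111601 to 56117596), with Plin3 159879 bases further (56277476 to 56292873). Exons of Plin4 overlap those of Hdgfl2 on the opposite strand, which had 43.9 ± 3.07 and 40.4 ± 4.01 CPM, so some Plin4 counts may belong to that gene.

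**Figure D3:**
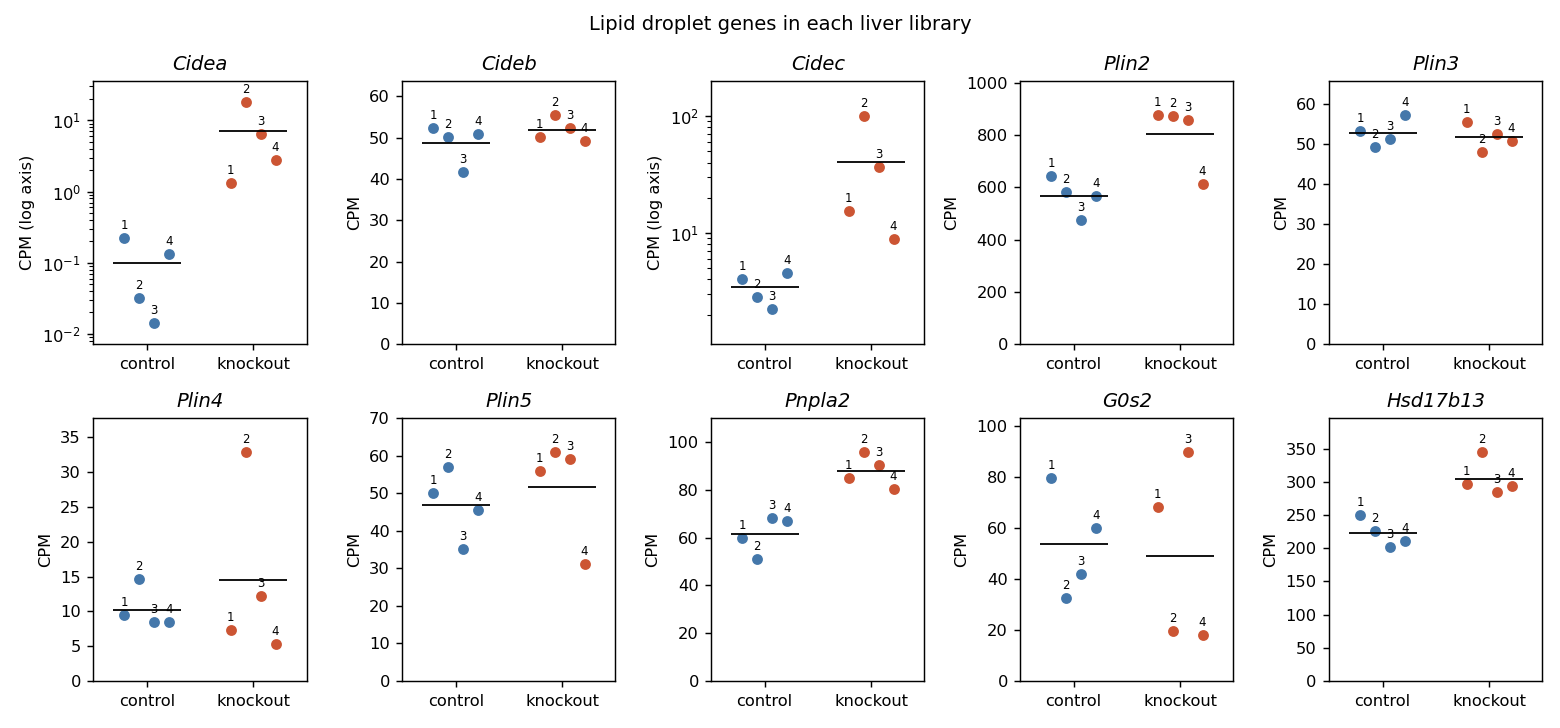
CPM of each member (y axis, logarithmic for Cidea and Cidec and from 0 for the others) in the control and knockout groups, 1 point per library with its replicate number and a line at the group mean. The groups are apart for Cidea, Cidec, Pnpla2 and Hsd17b13, and knockout library 4 is the low point for Plin2 and Plin5.

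Pnpla2 (ENSMUSG00000025509.15, chromosome 7, 141455198 to 141460743, plus strand), the lipase gene, rose in all 4 knockout libraries by a similar amount. The control libraries ranged over 60.1, 51.1, 68.4 and 67.1 CPM. The knockout libraries reached 85.0, 95.9, 90.5 and 80.5 CPM, all above the highest control. The means were 61.7 ± 7.95 and 88.0 ± 6.71 CPM, which is a log2 fold change of 0.51 with SE 0.101 (adjusted p = 0.0228, and 0.0286 under the replicate block). The call was lost without control replicate 1 (0.0634) and without knockout replicates 1 (0.058), 2 (0.0584) and 3 (0.0695).

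G0s2 (ENSMUSG00000009633.3, chromosome 1, 193272161 to 193273217, minus strand), whose protein binds and inhibits PNPLA2, divided the knockout livers instead. The control libraries had 79.7, 32.5, 42.1 and 60.2 CPM. Knockout libraries 1 and 3 had 68.4 and 89.8 CPM, and libraries 2 and 4 had 19.7 and 17.9 CPM, below every control. The means, 53.6 ± 20.8 and 49.0 ± 35.9 CPM, differed by −0.13 (SE 0.585, 95% interval −1.50 to 1.24, adjusted p = 0.92), and the sign turned without control replicate 1 (0.13), knockout replicate 2 (0.13) or knockout replicate 4 (0.15). Per kilobase, G0s2 stood at 4.27, 2.05, 1.98 and 2.89 times Pnpla2 in control libraries 1 to 4. The same ratio was 2.59, 0.661, 3.20 and 0.716 in knockout libraries 1 to 4, so the lipase transcript was the more abundant of the pair in libraries 2 and 4 only.

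Hsd17b13 (ENSMUSG00000034528.15, chromosome 5, 103955440 to 103977410, minus strand), a droplet-bound dehydrogenase gene largely restricted to hepatocytes, rose with little scatter. The control libraries had 250, 226, 202 and 211 CPM. The knockout libraries had 296, 345, 284 and 293 CPM, none of which overlapped the controls. The means were 222 ± 20.9 and 305 ± 27.3 CPM, which is a log2 fold change of 0.45 with SE 0.0907 (adjusted p = 0.0237, and 0.0179 under the replicate block). The call was lost without control replicate 2 (0.0523) and without knockout replicates 1 (0.0596), 2 (0.0539) and 3 (0.0554). For each of Cidec, Pnpla2 and Hsd17b13 an exact permutation test, two-sided, on the 70 possible assignments (n = 4 per group) gave p = 0.0286, the smallest it can give.

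Levels were compared between genes as CPM per kilobase of deposited gene length. In the control livers Plin2 led with 300.3 ± 36.1, followed by Hsd17b13 with 104 ± 9.83, G0s2 with 63.6 ± 24.7 and Cideb with 41.6 ± 4.15. Plin3 (24.4 ± 1.56), Plin5 (23.0 ± 4.53) and Pnpla2 (22.7 ± 2.93) did not differ beyond their spread. Cidec (1.95 ± 0.608) and Plin4 (1.62 ± 0.464) also lay within each other's spread, and Cidea was last with 0.0857 ± 0.0827. Among the knockout means the top 4 were in this order, with Plin2 at 426 ± 67.7, Hsd17b13 at 143 ± 12.8, G0s2 at 58.1 ± 42.6 and Cideb at 44.1 ± 2.32. Single libraries differed: G0s2 lay below Cideb in control library 2 (38.5 against 42.7), and in knockout libraries 2 (23.4) and 4 (21.2) it lay below both Cideb (47.2 and 42.0) and Pnpla2 (35.3 and 29.6). By mean, Pnpla2 followed with 32.4 ± 2.47, and Cidec, at 22.9 ± 23.6, now had a mean near those of Plin5 (25.4 ± 6.85) and Plin3 (24.0 ± 1.45), with a spread that covers all of them. Cidea (6.09 ± 6.43) stood above Plin4 (2.28 ± 2.00) by less than its own SD.

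The knockout libraries differed from each other in the droplet genes. Relative to the control mean on the log2 CPM scale, library 2 had the highest values of Cidea (7.73), Cidec (4.91), Plin4 (1.72), Pnpla2 (0.65) and Hsd17b13 (0.64) and a low G0s2 (−1.36). Library 4 had Plin2 at 0.12, Plin5 at −0.57, Plin4 at −0.91 and G0s2 at −1.50, while its Cidea (5.04), Pnpla2 (0.39) and Hsd17b13 (0.41) remained above every control library. Plin2 was raised alike in libraries 1, 2 and 3 (0.63, 0.63 and 0.60), and libraries 1 and 3 had a G0s2 above the control mean (0.43 and 0.83). After the group means were subtracted, deviations of Plin2 and Plin5 correlated at r = 0.94 over the 8 libraries, Cidec and Plin4 at 0.88 and Cidea and Cidec at 0.82, while Cidec and G0s2 had 0.065. These values share libraries and scaling, the control values of Cidea rest on few counts, and all are given as a description.

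**Figure D4:**
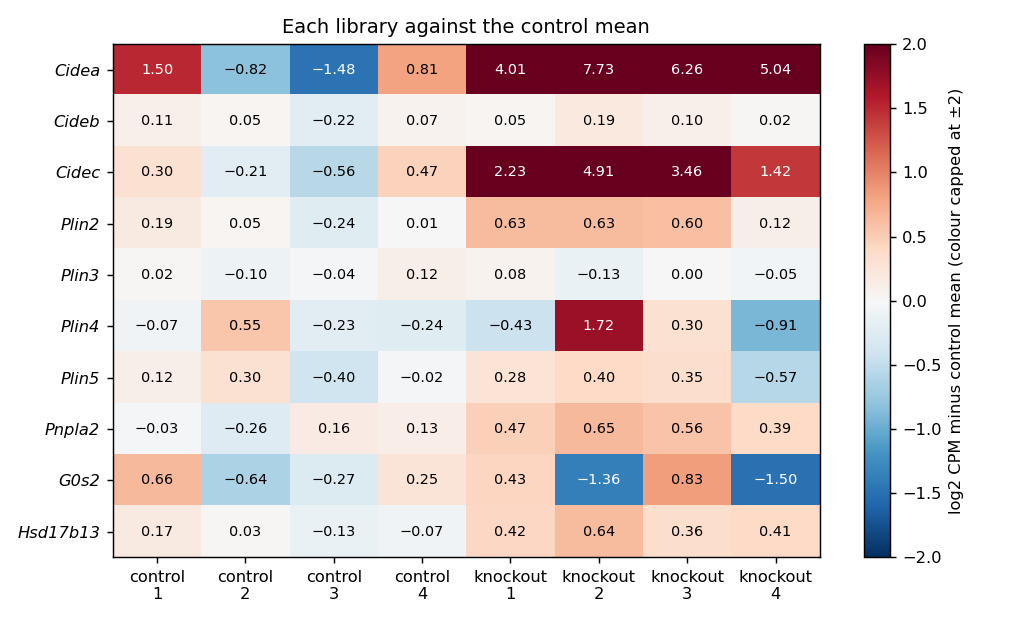
Log2 CPM of each member (rows) in each library (columns) minus the mean of the 4 control libraries, printed in each cell and coloured up to ±2. Cidea and Cidec are raised in all 4 knockout libraries by different amounts, and G0s2 is raised in knockout libraries 1 and 3 and lowered in 2 and 4.

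Other genes of the droplet pathway were read from 4 lists. Over all 14861 tested genes 3.51% rose and 1.88% fell, DESeq2 called 1014 higher and 724 lower, and limma 830 and 604. A single call in a short list is given for that gene and not as a trait of the list. Of 21 tested genes of droplet coat and biogenesis, 1 rose and 0 fell (3 and 2 at an unadjusted p under 0.05, 2 and 1 with DESeq2, 2 and 0 with limma), and the median log2 fold change was −0.03. The gene that rose was Fitm2, whose protein helps droplets bud from the endoplasmic reticulum, with 40.0 ± 3.09 and 60.6 ± 10.9 CPM and a log2 fold change of 0.60 (SE 0.125, adjusted p = 0.0271). The call for Fitm2 was lost without control replicates 1 (0.0754) and 2 (0.0653) and without knockout replicates 1 (0.074), 2 (0.0544) and 3 (0.0726). The remaining coat list member, the adipocyte perilipin gene Plin1, was not tested, with 0 to 2 counts in all 8 libraries.

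Among 11 tested genes of neutral lipid hydrolysis, 2 rose and 1 fell (5 and 1 at an unadjusted p under 0.05, 4 and 1 with DESeq2, 3 and 1 with limma), with a median of 0.20, where 3.51% of all tested genes rose and 1.88% fell. With the replicate block 3 rose and 1 fell, the added gene being Lipa, the lysosomal acid lipase gene (297 ± 45.1 and 377 ± 46.0 CPM, adjusted p = 0.146, and 0.0486 with the block). Abhd5, which encodes the protein that activates PNPLA2, had 41.5, 38.1, 36.2 and 42.9 CPM in the control and 62.7, 52.6, 53.1 and 58.5 CPM in the knockout libraries. The groups did not overlap, and Abhd5 rose by 0.52 (SE 0.0829, adjusted p = 0.0108), close to the 0.51 of Pnpla2, and kept its call without any single library. Mgll, whose monoglyceride lipase takes off the last fatty acid, had 225 ± 24.3 and 390 ± 73.9 CPM and rose by 0.79 (SE 0.143, adjusted p = 0.0172, but 0.0503 without knockout replicate 1 and 0.0576 without knockout replicate 3). Ces1g, a carboxylesterase gene, had 328 ± 57.1 and 191 ± 30.4 CPM and fell by 0.78 (SE 0.144, adjusted p = 0.0184, but 0.0529 without knockout replicate 1). Ces1g belongs to a cluster of similar carboxylesterase genes among which counting could split reads.

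Of 12 tested genes of triglyceride synthesis 1 rose and 0 fell (5 and 0 at an unadjusted p under 0.05, 3 and 0 with DESeq2, 2 and 0 with limma), with a median of 0.19, where 3.51% of all tested genes rose and 1.88% fell. The replicate block gave 2 higher genes, Gpam, which encodes a mitochondrial glycerol-3-phosphate acyltransferase (744 ± 230 and 1370 ± 256 CPM, adjusted p = 0.0576, and 0.00625 with the block), and the phosphatidate phosphatase gene Lpin2 (278 ± 32.3 and 418 ± 110 CPM, adjusted p = 0.0875, and 0.0443 with the block). The gene called without the block was Mogat1, which encodes a monoacylglycerol acyltransferase. It had 1.505, 0.545, 0.573 and 1.03 CPM in the control and 2.41, 4.01, 3.55 and 1.60 CPM in the knockout libraries (log2 fold change 1.67, SE 0.393, adjusted p = 0.0427, and 0.0966 under the replicate block). Of the 8 fits that each omitted a library 6 ended this call, those without control replicates 2 (0.0972), 3 (0.0769) and 4 (0.0691) and without knockout replicates 1 (0.084), 2 (0.102) and 3 (0.109).

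Among 14 tested transcription factor and cofactor genes that act on droplet genes, 1 rose and 0 fell (2 and 0 at an unadjusted p under 0.05, 1 and 0 with DESeq2, 1 and 0 with limma), with a median of 0.05, where 3.51% of all tested genes rose and 1.88% fell. Pparg encodes PPARγ, the adipocyte regulator under which Cidea and Cidec are transcribed in fat. It had 11.4, 9.61, 13.4 and 14.9 CPM in the control and 19.0, 26.9, 19.6 and 25.6 CPM in the knockout libraries, and rose by 0.88 (SE 0.161, adjusted p = 0.0178, or 0.0592 without control replicate 1). Srebf1 (539 ± 104 and 460 ± 49.9 CPM, adjusted p = 0.377), Mlxipl (511 ± 20.2 and 526 ± 58.0 CPM, adjusted p = 0.825) and Ppara (344 ± 43.9 and 360 ± 58.5 CPM, adjusted p = 0.816) did not pass the test.

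**Figure D5:**
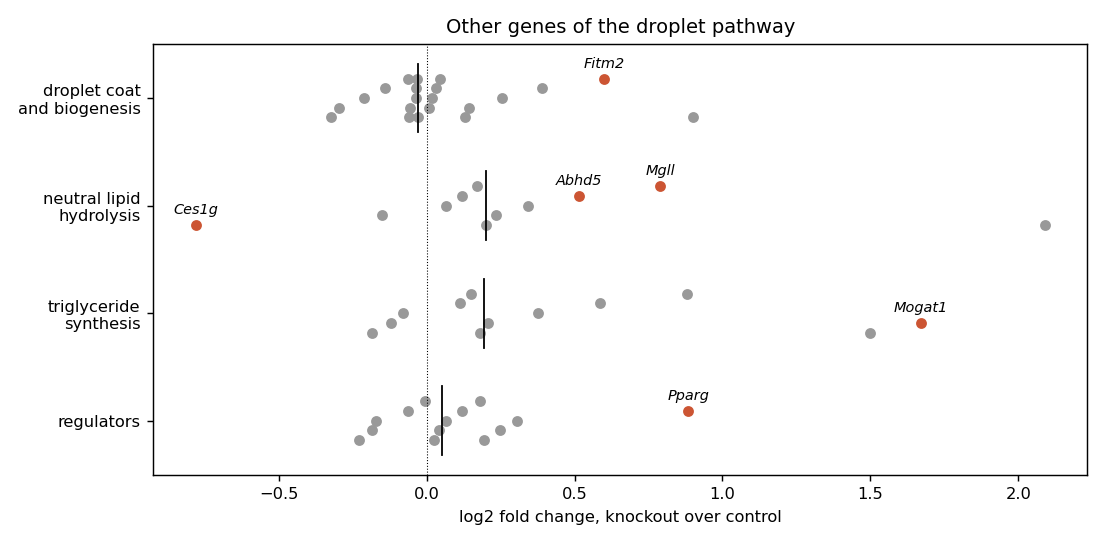
Log2 fold change, knockout over control (x axis), of each tested gene in the 4 pathway lists (rows), with a black line at each list's median. Genes with adjusted p under 0.05 are coloured and named: Fitm2, Abhd5, Mgll, Mogat1 and Pparg above 0 and Ces1g below it.

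Since CIDEA, CIDEC and PLIN4 are fat cell proteins, adipocyte markers were read beside them. Lep and Ucp1 had 0 counts in all 8 libraries, and the highest counts in any library were 2 for Plin1, 6 for Adipoq and 8 for Retn, against 2047 for Cidea and 11417 for Cidec. Of the 5 tested markers of 10, 1 passed, where 3.51% of all tested genes rose. That marker was the glycerol channel gene Aqp7, which reached the test through its level in the knockout group. It had 0.0855 ± 0.0563 and 0.481 ± 0.268 CPM and rose by 2.50 (SE 0.568, adjusted p = 0.0361, and 0.0685 under the replicate block). The Aqp7 call held in 1 of 8 leave-one-out fits and had adjusted p = 0.0537 to 0.0815 in the other 7, those without any 1 control library or without knockout replicate 1, 2 or 3. The summed level of the 10 markers was 21.1 to 28.7 CPM in the control and 27.8 to 38.0 CPM in the knockout libraries. Most of that sum came from Lipe and Adrb3, and Adrb3 (11.0 ± 2.28 and 17.1 ± 3.50 CPM) had adjusted p = 0.0719, and 0.0248 with the replicate block.

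Markers of other liver cells were summed in the same way. The 8 hepatocyte markers, led by Alb, had 77470 to 84850 CPM in the control and 91940 to 102700 CPM in the knockout libraries. Most of that sum was Alb (57600 ± 3580 and 71700 ± 4030 CPM). Only 4 of the 8 had a log2 fold change above 0, and the median was −0.013. The 9 macrophage and Kupffer cell markers had 147 to 205 CPM in the control and 253, 116, 157 and 328 CPM in knockout libraries 1 to 4. The 8 stellate cell markers had 241 to 374 and 291 to 459 CPM, and the 6 endothelial markers 152 to 215 and 154 to 222 CPM, in control and knockout libraries. The log2 fold change was above 0 for 9 of 9 macrophage, 4 of 8 stellate and 6 of 6 endothelial markers. Their medians were 0.23, 0.06 and 0.13. Over all tested genes 48.4% were above 0. By edgeR without the replicate block 0 markers of these 4 lists were called in either direction. With the block 1 hepatocyte marker, Ttr (2380 ± 312 and 3160 ± 283 CPM, adjusted p = 0.0643, and 0.0351 with the block), and 1 endothelial marker, Lyve1 (12.6 ± 3.79 and 20.7 ± 0.926 CPM, adjusted p = 0.0549, and 0.0231 with the block), were higher. At an unadjusted p under 0.05, 3 hepatocyte, 1 macrophage, 0 stellate and 1 endothelial marker were higher and 0 lower. DESeq2 called 3, 0, 0 and 1 higher and limma 2, 0, 0 and 1. The part of these sums in the members' differences was not tested.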

How the data were processed

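Liver RNA of 4 control and 4 knockout samples was analysed from 1 table of raw counts per gene symbol that the authors deposited. Each column name equals the identifier in 1 sample's description, which gave the mapping. The genome build was mm10, per the submitters' processing notes. The aligner, counting tool, annotation and strand setting were not given in the sources used here. Gene lengths are a separate column of bases (another unit than counts), per the file headers.

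The members and lists were chosen with earlier results of these data known. Named genes are the 10 members, Zfp36l1, list genes past the threshold and, for Cidea and Cidec, the 5 closest genes by deviation from the group means. One gene that this rule names is not reported here. B430212C06Rik, Nop9, Hdgfl2, Srebf1, Mlxipl, Ppara, Lipa, Gpam, Lpin2, Ttr, Lyve1, Lipe, Adrb3 and Alb were added after their values were seen.

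In R 4.3.3, edgeR 4.0.16 (filterByExpr, TMM, glmQLFit with robust estimation, glmQLFTest) was fitted to all 14861 genes that passed the filter, leaving out 10378, and tested on simulated data. The threshold was an adjusted p of 0.05. SE was approximated from the fold change and its F statistic. Log2 CPM used a prior count of 2. In each library 3 counts correspond to 0.0213 to 0.0286 CPM, which covers counting error only. Pairs of libraries within a group differed by a chi-square of 83.2 to 370 per gene, beyond counting error, and each was treated as a replicate. This check cannot tell separate animals from separate preparations of 1 animal. Alternatives were RLE size factors, total counts, no filter, at least 1 CPM in 4 libraries, DESeq2 1.42.0, limma 3.58.1 with quality weights, counts divided by 2 (67.4% to 70.8% of counts from 1 to 20 were even), a replicate block and each library left out.

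Both groups carry replicate numbers 1 to 4 in the labels, which do not say what a number marks. Deviations from the group means correlated over genes between libraries of the same number, at 0.17, 0.39, 0.31 and 0.4. All exceed 0.1, a limit set by choice, so the numbers were used as a block in an alternative fit. Libraries of different numbers were not compared in this way, so a pairing is not shown. Values with the replicate block stand beside the calls of members and list genes that it changes.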

Additional observations from a re-analysis of the deposited data

Results flagged for a closer look

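In 2 of the 20 sets of 4 libraries (10 genes in 2 groups) the lowest library stood far from the other 3, by a check that chance passes in about 1 of 20 sets. Both were knockout replicate 4. For Plin2 it had 613 CPM where the next library had 857 CPM, a gap that is 0.933 of the group's range. For Plin5 it had 31.0 CPM where the next had 56.0 CPM, a gap of 0.835 of the range. The log2 fold change without this library was 0.62 for Plin2 (adjusted p = 0.0149) and 0.32 for Plin5 (adjusted p = 0.261). The 9 macrophage and Kupffer cell markers summed to 328 CPM in that library, the highest of the 8, and their part in the result was not tested.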

How the results depend on the processing

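The log2 fold changes of Cidea, Cidec, Plin2, Plin5, Pnpla2 and Hsd17b13 kept their sign in all 17 alternatives run for each. Signs turned for 4 members that missed the threshold: Cideb had −0.026 under total counts alone, and without 1 library Plin3 ranged from −0.0612 to 0.0151, Plin4 from −0.299 to 0.776 and G0s2 from −0.601 to 0.148. Cideb ranged from 0.0197 to 0.124 in those fits. The number of higher members was 3 with the replicate block, 3 without the count filter, 5 with DESeq2, 3 with limma and 0 to 5 without 1 library. Over all genes, 521 rose and 280 fell, against 653 and 375 with the replicate block, 392 and 1338 under total counts alone, 1014 and 724 with DESeq2, 830 and 604 with limma, and 169 to 583 and 42 to 384 without 1 library. Under scaling by totals the median over all genes shifted by −0.113 (log2). Fits without 1 library have fewer samples; other causes were not tested. With 46 control counts of Cidea in all (exact 95% Poisson interval 33.7 to 61.4, counting error only), its fold change depends on few reads. That interval takes each count as an independent read. The control counts of Cidea were all even, as were 67.4% to 70.8% of counts from 1 to 20, so the interval may be too narrow.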

Other observations

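The genes whose deviations from the group means over the 8 libraries were closest to those of Cidec, among 11351 genes with at least 1 CPM, were Slc25a10 (r = 0.98, Spearman rho 0.976), Cops8 (0.974, rho 0.952), Tpm2 (0.974, rho 0.929), Ddrgk1 (0.972, rho 0.833) and Setd6 (0.972, rho 1). Slc25a10 encodes the mitochondrial dicarboxylate carrier, and it had 323, 480, 394 and 261 CPM in knockout libraries 1 to 4, in the same order as Cidec. None of these 5 passed the edgeR test between the groups (adjusted p = 0.147 to 0.422). Among the closest for Cidea were Gnl2 (r = 0.981, rho 0.976), Tsr2 (0.972, rho 0.952), Cers2 (0.967, rho 0.929) and Kctd13 (0.966, rho 0.976). Cers2, a ceramide synthase gene, rose by 0.33 (adjusted p = 0.0307). These are the highest of many correlations over few libraries and are given as a description. For Cidea the control deviations also rest on only 24, 4, 2 and 16 counts.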
